A study of Mus musculus with 30 samples.

Results

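The genes described here are 10 genes whose transcripts mark fat cells: Adipoq, Plin1, Plin4, Cidec, Fabp4, Lep, Cfd, Retn, Adig and Ucp1. They were found by matching the Ensembl identifiers of the count tables to mouse gene symbols, and all 10 of 10 were found among the 48709 genes counted. The study sequenced total RNA of 5 tissues, brain, kidney, liver, muscle (quadriceps femoris) and spleen, from adult C57BL/6 mice. Animals were wild type (WT) or heterozygous for the loss of Ctcf (Ctcf+/-), the gene of the DNA-binding protein that folds chromatin into loops. Each of the 10 groups of tissue and genotype held 3 libraries, which gives 30 libraries. The series' design names 3 mice of each genotype, so that libraries of different tissues share animals, but no label ties a library to an animal. The tests across tissues treated the libraries as independent. WT and heterozygous animals shared strain and adult stage. The p-values below measure the spread between these libraries.

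A fat cell stores triglyceride in a lipid droplet and secretes hormones into the blood. White fat cells hold a single large droplet and release leptin, adiponectin, resistin and adipsin, whereas brown fat cells burn fat for heat in mitochondria that carry the uncoupling protein Ucp1. Fat lies around the kidney, between and within muscles, and near the spleen, so that a tissue piece can include some of it. In bulk RNA, fewer fat cells in a piece and less RNA per fat cell cannot be told apart.

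The members fall into 3 roles. Adipoq encodes the hormone adiponectin, Lep the hormone leptin, Retn the hormone resistin and Cfd the protease adipsin, which is also complement factor D. Plin1, Plin4 and Cidec encode proteins of the lipid droplet coat, with Cidec promoting droplet fusion, Fabp4 carries fatty acids in the cytoplasm and is also made by capillary endothelium, and Adig encodes a small membrane protein of fat cells. Ucp1 encodes the proton channel of brown fat mitochondria. On the GRCm38 assembly, Adipoq spans chr16:23146536-23158028 and Ucp1 spans chr8:83290352-83298452, both on the plus strand. Lep spans chr6:29060220-29073877 on the plus strand, and Plin4 spans chr17:56100591-56109803 on the minus strand.

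Promoters are shown for the hormone that the other members are set against (Adipoq), for the marker of white fat (Lep), for the marker of brown fat (Ucp1) and for the droplet protein that had a pattern of its own in muscle (Plin4). Each run is the 250 bases before the RefSeq start on GRCm38.p6, 5′ to 3′ on the gene's strand, at chr16:23146286-23146535 (plus strand), chr6:29059971-29060220 (plus strand), chr8:83290098-83290347 (plus strand) and chr17:56109783-56110032 (minus strand). RefSeq gave a start for 9 of the 10 genes. Capitals mark matches on either strand to AGGTCA (the core site of nuclear receptors), TTGCGCAA (a C/EBP palindrome), TATAAA (the TATA box) or CCAAT, whose complement reads ATTGG.
Adipoq: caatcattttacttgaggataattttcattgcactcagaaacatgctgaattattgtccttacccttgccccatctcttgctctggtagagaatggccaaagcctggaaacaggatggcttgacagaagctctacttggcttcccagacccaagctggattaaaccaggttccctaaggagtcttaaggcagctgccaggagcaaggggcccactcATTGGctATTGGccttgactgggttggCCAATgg
Lep: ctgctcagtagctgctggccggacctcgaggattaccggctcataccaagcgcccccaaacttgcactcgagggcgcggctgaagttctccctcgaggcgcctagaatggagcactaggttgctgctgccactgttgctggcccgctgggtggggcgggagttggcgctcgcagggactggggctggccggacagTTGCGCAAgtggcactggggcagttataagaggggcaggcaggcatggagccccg
Ucp1: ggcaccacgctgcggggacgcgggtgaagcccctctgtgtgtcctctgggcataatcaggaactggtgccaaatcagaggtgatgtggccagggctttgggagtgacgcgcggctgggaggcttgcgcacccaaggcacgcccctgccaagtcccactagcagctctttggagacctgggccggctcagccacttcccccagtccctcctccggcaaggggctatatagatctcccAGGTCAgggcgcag
Plin4: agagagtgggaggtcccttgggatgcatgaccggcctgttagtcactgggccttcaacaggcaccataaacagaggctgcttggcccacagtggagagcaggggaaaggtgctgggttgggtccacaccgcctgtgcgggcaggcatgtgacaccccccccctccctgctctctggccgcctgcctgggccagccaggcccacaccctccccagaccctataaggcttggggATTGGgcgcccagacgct

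Adipoq held 3 CCAAT matches in this window, Plin4 held 1, Lep held 1 TTGCGCAA match and Ucp1 held 1 AGGTCA match. Of 32851 mouse promoter windows of the same length, 33.8% held CCAAT, 0.164% held TTGCGCAA, 14% held AGGTCA and 12.4% held TATAAA. A match is a description of the letters, and the 4 motifs do not overlap in these windows.

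Total counts per library, in megacounts (M), were 49.8 to 131.6 M in brain, 82.5 to 100.2 M in kidney, 56.3 to 81.1 M in liver, 86.1 to 103.7 M in muscle and 77.9 to 91.4 M in spleen. A level below 3 counts in a library was taken as the detection floor, which equalled 0.0229 to 0.0605 CPM (counts scaled to a fixed library size) over the 30 libraries. Ctcf itself was lower in all 3 heterozygous libraries than in all 3 WT libraries of every tissue, with log2 fold changes from -0.70 in kidney to -0.57 in muscle. Across all genes, edgeR's quasi-likelihood test called 45 genes in spleen, 4 each in kidney and muscle, and 3 each in brain and liver at an adjusted p under 0.05. Defining markers of each labelled tissue were present in it, with sums of 5 genes from 8304 CPM up for brain cells in brain, 144500 CPM up for hepatocytes in liver and 3825 CPM up for lymphocytes in spleen. Kidney WT replicate 3 stood apart from the other kidney libraries in the genes described here, and the genotype, tissue, per-length level and Ucp1 share results that use it are given with and without it.

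In WT libraries the fat-cell genes were highest in kidney or muscle, although Ucp1 had 0, 2 and 0 counts in muscle. In the other 3 tissues, mean WT levels above 1 CPM were found for Fabp4, Plin4 and Cidec in liver, Fabp4 in spleen and Plin4 in brain. Levels below are CPM scaled within each tissue by TMM (a scaling that lines up the bulk of genes between libraries). Summed over the 10 genes, WT libraries reached 84.5 to 702.3 CPM in kidney and 316.1 to 501.2 CPM in muscle. Plin4 and Fabp4 made up most of the muscle sums, with WT means of 167.6 and 218.6 CPM. In kidney their WT means were 8.89 and 190.6 CPM. Adipoq averaged 5.77 CPM in WT muscle and 29.7 CPM in WT kidney, so the sums do not rank the tissues by every member. The sums in WT were 11.8 to 16.2 CPM in liver, 2.36 to 8.51 CPM in brain and 3.05 to 7.92 CPM in spleen.

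**Figure D1:**
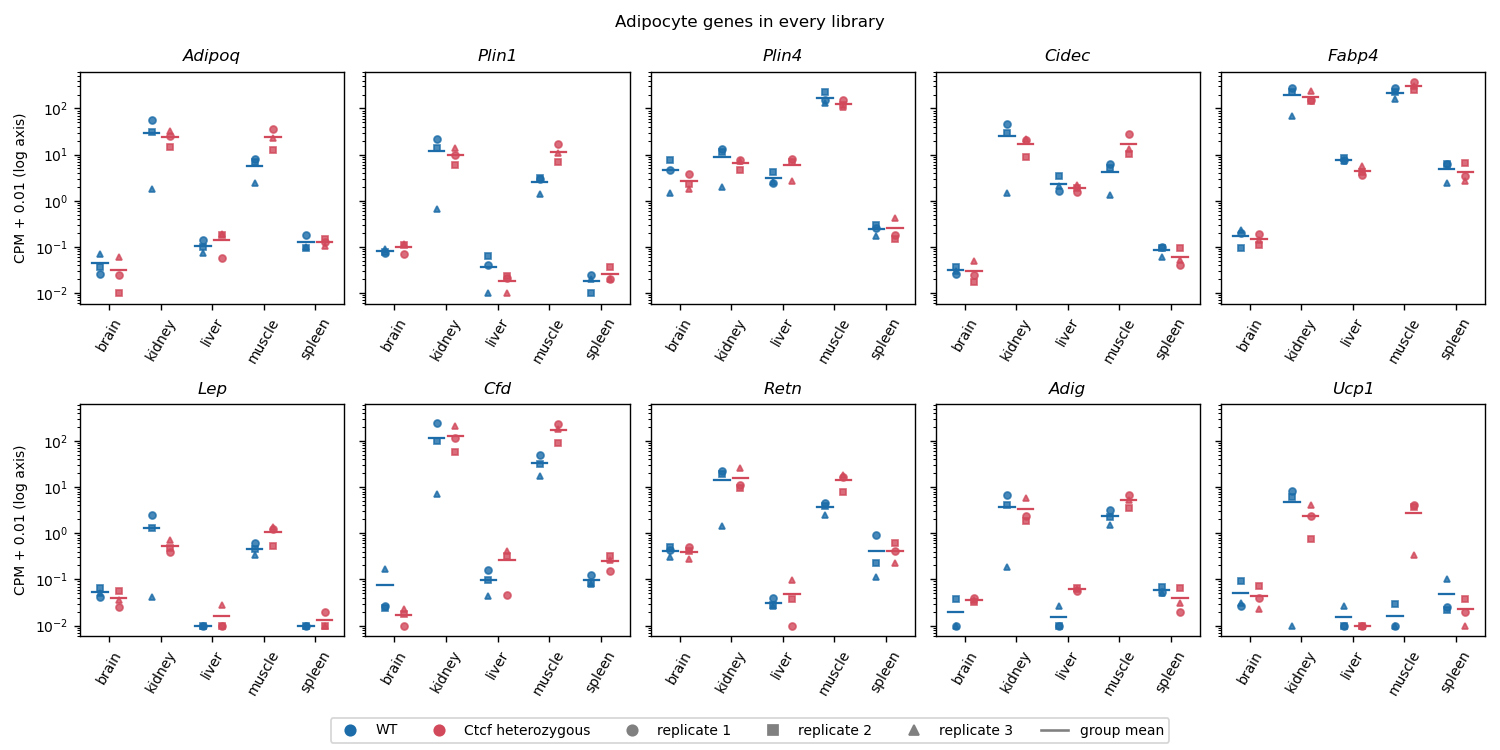
CPM plus 0.01 (log axis) of each of the 10 genes in all 30 libraries, by tissue; colour gives the genotype, the marker shape gives the replicate number and the short line the group mean. Kidney WT replicate 3 is the lowest kidney library for every gene, and the 3 heterozygous muscle libraries lie above the 3 WT muscle libraries for 7 of the 10 genes.

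In kidney, Adipoq was at 55.9, 31.5 and 1.75 CPM in WT replicates 1 to 3 and at 25.5, 14.4 and 33.2 CPM in heterozygous replicates 1 to 3. Cfd was at 245.2, 98.9 and 7.21 CPM in WT and at 117.4, 57.6 and 213.0 CPM in heterozygous kidney. Retn was at 22.2, 19.0 and 1.42 CPM in WT and at 11.03, 9.39 and 25.9 CPM in heterozygous kidney. WT replicate 3 was the lowest library and the genotypes overlapped for each of these secreted proteins. Lep, the hormone that reports fat mass to the brain, was at 2.48, 1.31 and 0.0305 CPM in WT and at 0.391, 0.467 and 0.698 CPM in heterozygous kidney. WT replicates 1 and 2 were the highest for Lep and WT replicate 3 the lowest, at 3 counts.

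The droplet proteins had their lowest kidney library in WT replicate 3 as well. Plin1 was at 21.7, 14.04 and 0.651 CPM in WT and at 9.71, 6.05 and 13.7 CPM in heterozygous kidney. Cidec was at 46.6, 28.9 and 1.48 CPM in WT and at 20.6, 8.82 and 22.0 CPM in heterozygous kidney. Plin4 was at 13.2, 11.4 and 1.995 CPM in WT and at 7.74, 4.62 and 7.32 CPM in heterozygous kidney. All 3 droplet genes were highest in WT replicate 1 and lowest in WT replicate 3. Fabp4 was at 280.1, 221.9 and 69.8 CPM in WT and at 154.0, 143.8 and 236.7 CPM in heterozygous kidney, and Adig was at 6.64, 4.17 and 0.173 CPM in WT and at 2.31, 1.84 and 5.72 CPM in heterozygous kidney. WT replicate 3 was again the lowest library for Fabp4 and Adig, and the genotypes overlapped.

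Ucp1 was present in 5 of the 6 kidney libraries. It was at 8.38 and 6.16 CPM in WT replicates 1 and 2, at 2.34, 0.742 and 4.11 CPM in heterozygous kidney, and had 0 counts in WT replicate 3. The brown marker thus had no count in the library in which every other member was lowest.

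No member was called between heterozygous and WT kidney (0 of 10 tested by edgeR's quasi-likelihood test, beside 0.0211% of all genes, with 0 of 10 at an unadjusted p under 0.05, beside 6.44% of all genes). Groups did not overlap for 0 of 10 members, beside 11.4% of all genes in either direction. The log2 fold change (heterozygous over WT) was -0.29 ± 0.86 (SE) for Adipoq, -0.30 ± 0.86 for Plin1, -0.44 ± 0.56 for Plin4, -0.58 ± 0.87 for Cidec and -0.10 ± 0.43 for Fabp4. It was -1.29 ± 0.95 for Lep, 0.14 ± 0.93 for Cfd, 0.12 ± 0.78 for Retn, -0.15 ± 0.91 for Adig and -1.01 ± 1.22 for Ucp1. The median over the 10 genes was -0.29, beside 0.00 over all genes tested. Without WT replicate 3, all 10 values were negative, from -1.86 for Lep to -0.41 for Cfd, with Adipoq at -0.84, and 0 were called. Without WT replicate 1 instead, Adipoq was at 0.55 and again not called.

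Markers of other tissues also varied between kidney libraries. The summed CPM of 5 skeletal muscle fibre genes was 146.3 in WT replicate 3 and 185.3 in heterozygous replicate 3, and 0.0838 to 0.259 in the other 4 kidney libraries. The sum of 5 adrenal cortex genes was 48.0 and 84.8 CPM in heterozygous replicates 2 and 3, and 4.64 to 4.85 CPM in the rest. The sum of 5 kidney tubule genes was 23010 to 24380 CPM in WT and 20220 to 26410 CPM in heterozygous kidney. The sum of 7 endothelial genes, which bears on Fabp4, was 337.7 to 398.5 CPM in WT and 307.9 to 401.3 CPM in heterozygous kidney. Fibroblast and adipose progenitor genes (6) summed to 309.1 to 343.0 CPM in WT and 390.1 to 461.4 CPM in heterozygous kidney. These sums did not overlap between genotypes, and 0 of the 6 genes were called, beside 0.0211% of all genes. An unadjusted edgeR p under 0.05 was found for 3 of the 6, all higher, beside 6.44% of all genes. Groups did not overlap for 4 of the 6, all higher, beside 11.4% of all genes in either direction. The part of these cells in the kidney values was not tested.

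In muscle, 9 of the 10 members had a positive log2 fold change in heterozygous over WT libraries, and none passed the adjusted test. Adipoq was at 7.90, 7.06 and 2.36 CPM in WT replicates 1 to 3 and at 36.5, 12.8 and 22.8 CPM in heterozygous replicates 1 to 3, with a log2 fold change of 2.06 ± 0.49 (SE; edgeR adjusted p = 0.385). Cfd was at 49.99, 32.1 and 17.1 CPM in WT and at 236.7, 89.8 and 178.2 CPM in heterozygous muscle, with a log2 fold change of 2.35 ± 0.45 (adjusted p = 0.240). Every heterozygous library lay above every WT library for both genes. Retn was at 4.48, 3.91 and 2.49 CPM in WT and at 16.9, 7.99 and 18.2 CPM in heterozygous muscle (log2 fold change 1.99 ± 0.34, adjusted p = 0.233). Lep was at 0.605, 0.436 and 0.329 CPM in WT and at 1.20, 0.506 and 1.38 CPM in heterozygous muscle (log2 fold change 1.17 ± 0.41, adjusted p = 0.647). The genotypes did not overlap for Retn, and they overlapped for Lep, where heterozygous replicate 2 lay below WT replicate 1.

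Among the droplet proteins, Plin1 was at 3.01, 3.11 and 1.38 CPM in WT and at 16.6, 6.99 and 10.8 CPM in heterozygous muscle (log2 fold change 2.19 ± 0.39, edgeR adjusted p = 0.233). Cidec was at 6.11, 5.02 and 1.304 CPM in WT and at 28.4, 10.2 and 12.9 CPM in heterozygous muscle (log2 fold change 2.05 ± 0.57, adjusted p = 0.469). The genotypes did not overlap for either gene, and WT replicate 3 was the lowest library for both. Plin4 was at 149.8, 222.6 and 130.3 CPM in WT and at 155.5, 121.0 and 106.6 CPM in heterozygous muscle (log2 fold change -0.39 ± 0.22, adjusted p = 0.855). It was the only member with a negative value in muscle, and its groups overlapped.

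Fabp4 was at 271.6, 224.7 and 159.5 CPM in WT and at 369.5, 253.8 and 306.9 CPM in heterozygous muscle (log2 fold change 0.50 ± 0.21, edgeR adjusted p = 0.750), and its groups overlapped. Adig was at 3.18, 2.27 and 1.49 CPM in WT and at 6.66, 3.45 and 5.32 CPM in heterozygous muscle (log2 fold change 1.15 ± 0.32, adjusted p = 0.469), and its groups did not overlap. Ucp1 had 0, 2 and 0 counts in WT muscle and 407, 324 and 30 counts in heterozygous muscle, or 4.01, 3.73 and 0.321 CPM. The 761 heterozygous counts against 2 WT counts give a ratio of 403 (exact 95% interval 111 to 3340, for counting error only). The fitted log2 fold change of Ucp1 was 8.40 ± 1.33 (adjusted p = 0.228), a value that depends on how the fit treats the near-absent WT counts.

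In muscle, 0 of 10 members were called, beside 0.0249% of all genes tested, and 9 of 10 had an unadjusted p under 0.05, beside 6.45% of all genes. Heterozygous libraries lay above all WT libraries for 7 of 10 members, beside 5.91% of all genes. They lay below all WT libraries for 0 of 10 members, beside 6.28% of all genes. The median log2 fold change was 2.02 over the 10 members and -0.01 over all genes tested. Ucp1, with 0, 2 and 0 WT counts, passed the expression filter only through the heterozygous libraries. A higher value for it was thus set in advance. Ucp1 is among the members in both the unadjusted and the non-overlap count. It therefore adds no support to these counts, or to the calls that use this filter on muscle alone. The members also varied together between muscle libraries (7 of 9 had r of 0.903 to 0.989 with Adipoq). They are thus not independent measures of the genotypes, and the share of all genes is no test of these counts.

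The call in muscle depended on the tool, the filter and the block. DESeq2 called 5 of 10 members (Plin1, Cfd, Retn, Adig and Ucp1), beside 1.01% of genes. With every gene that had any count kept, edgeR called 5 (Adipoq, Plin1, Cfd, Retn and Ucp1), beside 0.251% of genes. A fit of all 30 libraries called Ucp1 alone, beside 0.944% of genes, and so did the fit without heterozygous replicate 3, beside 0.0122% of genes. With the replicate number as a block, edgeR called 6 (Adipoq, Plin1, Cidec, Cfd, Retn and Ucp1), beside 0.735% of genes, although the numbers are not shown to pair the muscle libraries.

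**Figure D2:**
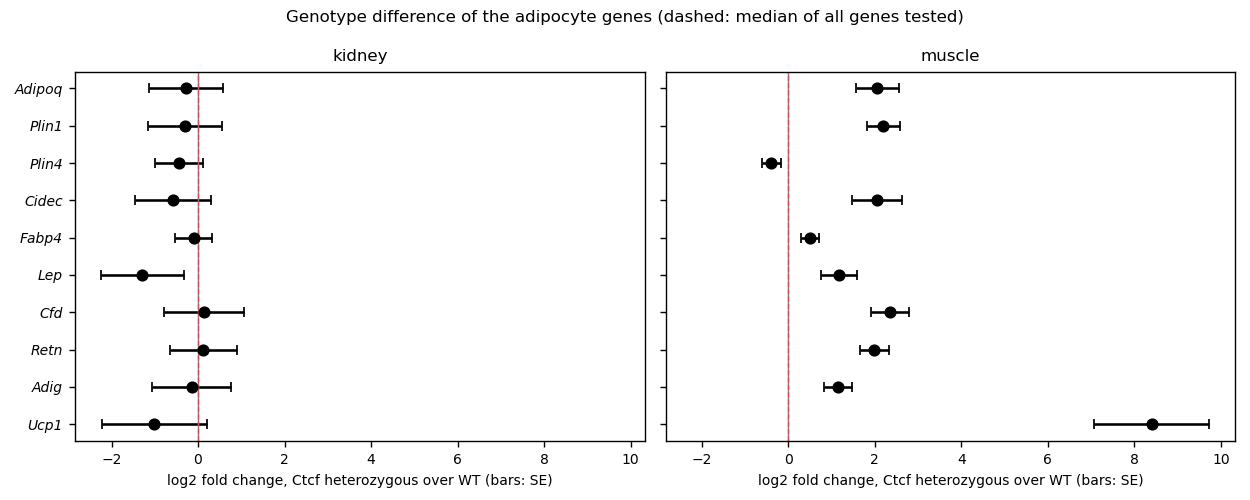
Log2 fold change of heterozygous over WT for the 10 genes in kidney and in muscle, with SE bars (3 libraries a group); the dashed line is the median over all genes tested. In kidney the values lie between -1.29 and 0.14 with wide bars, and in muscle 9 lie above 0 and Plin4 lies at -0.39.

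Markers of other cells were set beside the muscle result. The summed CPM of 6 fibroblast and adipose progenitor genes was 361.3, 494.6 and 302.9 in WT and 604.5, 811.5 and 378.1 in heterozygous muscle, so that the genotypes overlapped. Its highest value came from heterozygous replicate 2, the heterozygous library with the least Adipoq. Macrophage genes (5) summed to 24.3 to 36.6 CPM in WT and 30.8 to 58.6 CPM in heterozygous muscle. Endothelial genes (7) summed to 249.2 to 342.2 CPM in WT and 220.9 to 310.7 CPM in heterozygous muscle. Kidney tubule genes (5) summed to 9.42, 67.5 and 9.09 CPM in WT muscle and to 0.0986, 0.115 and 5.46 CPM in heterozygous muscle, and 5 skeletal muscle fibre genes summed to 144900 to 150700 CPM in WT and 131800 to 161700 CPM in heterozygous muscle. None of these marker genes was called in muscle. An unadjusted edgeR p under 0.05 was found for 3 of 5 macrophage genes (higher) and 4 of 5 kidney tubule genes (lower). It was also found for 1 of 6 fibroblast and adipose progenitor genes (higher), and for 0 endothelial and 0 muscle fibre genes, beside 6.45% of all genes. The part of these cells in the muscle values was not tested.

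**Figure D3:**
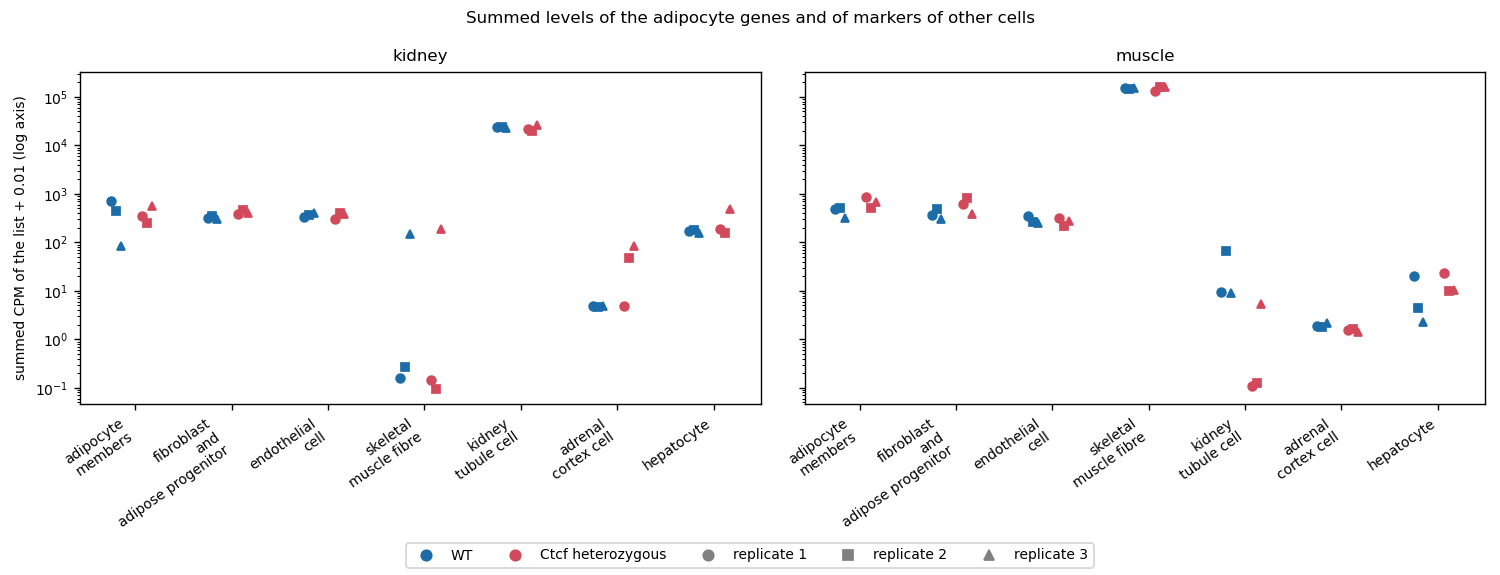
Summed CPM plus 0.01 (log axis) of the 10 fat-cell genes and of 6 marker lists in each kidney and muscle library; colour gives the genotype and shape the replicate. Kidney WT replicate 3 has the lowest sum of fat-cell genes in kidney, and skeletal muscle fibre genes reach 146.3 and 185.3 CPM in 2 kidney libraries. Plin4 and Fabp4 make up most of the sums of fat-cell genes in muscle.

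The other fat-cell genes were taken from lists. Of 24 further fat-cell genes (transcription factors, lipases and fat-synthesis enzymes), 0 were called in muscle, beside 0.0249% of all genes. An unadjusted edgeR p under 0.05 was found for 11 with higher heterozygous values and 1 with lower, beside 6.45% of all genes. The median log2 fold change was 0.40. The genes named here from this list were chosen after their values were seen. Those with the smallest p included Thrsp, a nuclear protein of lipid synthesis (mean 19.4 CPM in WT and 44.1 CPM in heterozygous muscle, log2 fold change 1.19 ± 0.18, edgeR adjusted p = 0.228), and Fasn, the fatty acid synthase (23.2 and 79.8 CPM, 1.79 ± 0.28, adjusted p = 0.228). Scd1, the desaturase of saturated fatty acids, averaged 48.5 and 155.9 CPM (log2 fold change 1.68 ± 0.28, adjusted p = 0.229). Lpl, the lipase that frees fatty acids at the vessel wall, averaged 877.7 and 638.3 CPM (-0.46 ± 0.30, adjusted p = 0.891), and Pparg, the master transcription factor of fat cells, 3.18 and 3.80 CPM (0.26 ± 0.32, adjusted p = 0.960). In kidney 0 of these 24 genes were called (beside 0.0211% of all genes) and 0 had an unadjusted p under 0.05 (beside 6.44%). Their median log2 fold change was -0.04.

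Brown fat genes other than Ucp1 gave a mixed picture in muscle. Of the 12 genes of that list, which includes Ucp1, 0 were called, beside 0.0249% of all genes. An unadjusted edgeR p under 0.05 was found for 3 with higher values and 1 with lower, beside 6.45% of all genes. The median log2 fold change was 0.15, and 7 of the 12 values were positive. Groups did not overlap for 2 genes with higher values and for 2 with lower, beside 5.91% and 6.28% of all genes. No single gene thus stands for this list. Cidea, a droplet protein of brown fat that was chosen after its values were seen, was at 1.60, 0.775 and 0.307 CPM in WT and 5.09, 7.52 and 5.47 CPM in heterozygous muscle (log2 fold change 2.74 ± 0.49, edgeR adjusted p = 0.233). In kidney, Cidea was at 7.99, 2.03 and 0.0611 CPM in WT and at 1.33, 0.778 and 7.25 CPM in heterozygous libraries, with the genotypes overlapping. Cox7a1 and Cox8b, which brown fat shares with muscle fibres, had log2 fold changes of -0.11 ± 0.17 and -0.11 ± 0.16. The white fat list of 6 genes includes Lep and Retn. In muscle, 5 of them were tested and 0 were called, beside 0.0249% of all genes. Of those tested, 4 had an unadjusted edgeR p under 0.05 with higher values, beside 6.45% of all genes. Of the 4 receptors of adiponectin and leptin, 0 were called in kidney or muscle (beside 0.0211% and 0.0249% of all genes). Their median log2 fold changes were -0.08 and 0.12.

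Ucp1 was set against Adipoq within each library, as its percentage of the counts of both genes together. In kidney this share was 13.0%, 16.4% and 0% in WT replicates 1 to 3 (exact 95% intervals 12.2 to 13.9, 15.1 to 17.7 and 0 to 2.12), and the floor of 3 counts equals 1.74% of the 172 counts in replicate 3. It was 8.43%, 4.90% and 11% in heterozygous kidney (intervals 7.39 to 9.55, 3.78 to 6.24 and 10 to 12.1). The intervals of the 6 kidney libraries did not overlap one another. In WT muscle the share was 0%, 0.274% and 0% (intervals 0 to 0.447, 0.0332 to 0.985 and 0 to 1.70), where the floor of 3 counts equals 0.365% of the 823 counts in replicate 1 and 1.40% of the 215 counts in replicate 3. In heterozygous muscle it was 9.91%, 22.6% and 1.39% (intervals 9.01 to 10.9, 20.4 to 24.8 and 0.939 to 1.98). These are counts without molecular identifiers, so the intervals cover counting error only.

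As counted, the share of Ucp1 was higher in every heterozygous than in every WT muscle library, with means of 11.3% ± 10.7 (SD, n = 3) and 0.0913% ± 0.158 (SD, n = 3), and a two-sided exact permutation test gave p = 0.1, the smallest value that 3 against 3 allows. The interval of heterozygous replicate 3 (0.939 to 1.98) overlapped those of WT replicates 2 and 3 (upper ends 0.985 and 1.70). The order of these libraries is therefore not resolved by the counts. Heterozygous replicate 2 had the lowest Adipoq of its group and the highest share of Ucp1. In kidney the means were 9.80% ± 8.66 (SD, n = 3) in WT and 8.11% ± 3.06 (SD, n = 3) in heterozygous libraries (exact permutation p = 0.8). Without WT replicate 3 the WT mean was 14.7%, and both WT libraries lay above the 3 heterozygous libraries (difference of -6.59 percentage points, heterozygous minus WT, exact permutation p = 0.2, the smallest that 2 against 3 allows). Without heterozygous replicate 2 the difference in muscle was 5.56 percentage points. Adjusted over both tests of all 6 libraries the values were p = 0.2 and p = 0.8 (exact permutation test with Benjamini-Hochberg adjustment).

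**Figure D4:**
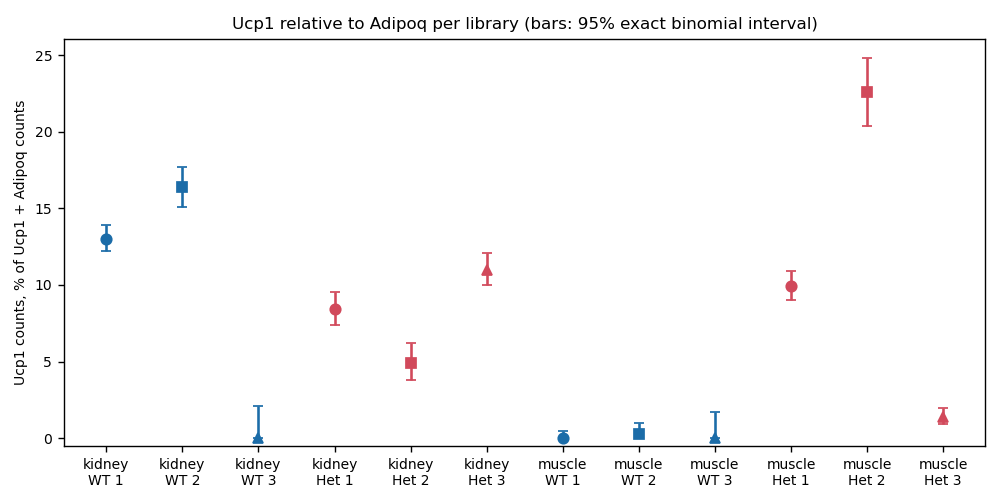
Ucp1 counts as a percentage of Ucp1 plus Adipoq counts (y axis) in each kidney and muscle library (x axis), with exact 95% binomial intervals. The share is 4.90% or more in 5 of 6 kidney libraries and 0.274% or less in the 3 WT muscle libraries.

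Some of the other members kept a narrower ratio to Adipoq. On the per-length scale (FPKM, CPM per kilobase of exon), the ratio of Plin1 to Adipoq was 0.111 to 0.133 over the 6 kidney libraries and 0.113 to 0.174 over the 6 muscle libraries, while the level of Adipoq varied 31.9-fold and 15.5-fold between libraries. The FPKM ratio of Cidec to Adipoq was 0.456 to 0.682 in kidney and 0.412 to 0.590 in muscle. Cfd stood at 4.70 to 9.60 times the FPKM of Adipoq in kidney and 6.80 to 11.7 times in muscle. The ratio of Retn was 0.348 to 0.707 in kidney and 0.405 to 0.923 in muscle. That of Adig was 0.155 to 0.294 and 0.311 to 1.08, and that of Lep 0.00632 to 0.0182 and 0.0136 to 0.0574. Plin1 and Cidec kept the narrowest ranges in both tissues. Plin4 and Fabp4 varied more, with FPKM ratios to Adipoq of 0.0527 to 0.272 and 1.54 to 12.3 in kidney, and of 1.02 to 13.2 and 3.12 to 20.8 in muscle. The highest Plin4 and Fabp4 ratios came from the libraries with least Adipoq, WT replicate 3 in both tissues.

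**Figure D5:**
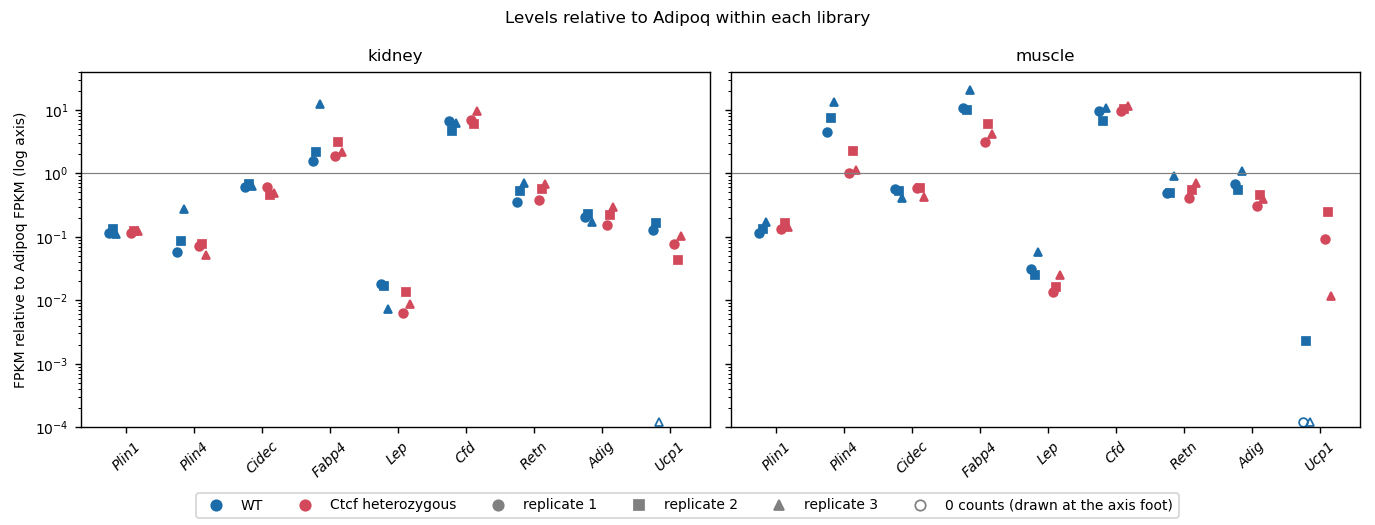
FPKM of the other 9 genes relative to Adipoq FPKM (log axis) within each of the 6 kidney and 6 muscle libraries; colour gives the genotype, shape the replicate, and open markers at the axis foot are libraries with 0 Ucp1 counts. Plin1 and Cidec form the tightest groups in both tissues, and Plin4, Fabp4 and Ucp1 spread.

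Levels across libraries were then correlated with Adipoq on the log2 CPM scale, separately in the 6 kidney and the 6 muscle libraries, for 18 relations in all. WT and heterozygous libraries were pooled and permuted together. In muscle, r and its p therefore also carry the separation of the genotypes given above. Over 6 kidney libraries, all 9 members had Pearson's r with Adipoq between 0.955 and 0.999 (exact permutation p adjusted over the 18 relations from 0.005 to 0.00833). In muscle, 7 of 9 had r between 0.903 and 0.989 (exact permutation adjusted p from 0.005 to 0.0125). Plin4 in muscle had r = -0.167 and Spearman's rho = -0.2 (exact permutation p = 0.762 and 0.714). Ucp1 in muscle had r = 0.786 and rho = 0.841 (exact permutation p = 0.0750 and 0.0444, adjusted 0.0794 and 0.04999). These libraries share their depth and their tissue, and leaving out the 2 libraries with Adipoq farthest from the median kept r between 0.577 (Lep) and 0.987 (Plin1) in kidney. In muscle r was then 0.613 for Ucp1, -0.873 for Plin4 and 0.797 to 0.999 for the other 7. Spearman's rho was 0.829 to 1 for the other 16 relations, and after adjustment it passed 0.05 for 15 of them, the exception being Plin4 in kidney (rho = 0.829, exact permutation p = 0.0583, adjusted 0.0618).

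Over all 30 libraries, with each tissue's mean taken off the log2 CPM, the 5 genes most like Adipoq among 18576 genes were Ankef1 (Pearson r = 0.918), Cidec (0.915), Cfd (0.899), Plin1 (0.888) and A530016L24Rik (0.886). Of those, 3 are members. Genotype means were not taken off, so separation of the genotypes within a tissue also enters these values. Retn stood at rank 8 (0.836), Adig at rank 16 (0.782), Ucp1 at rank 18 (0.772), Fabp4 at rank 35 (0.665) and Plin4 at rank 1119 (0.29). Lep, with a mean under 1 CPM over the 6 libraries of every tissue, was not among the genes ranked.

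Liver carried low levels of 3 members. Fabp4 was at 7.44, 8.31 and 7.14 CPM in WT and at 3.60, 4.08 and 5.58 CPM in heterozygous liver (log2 fold change -0.79 ± 0.20, edgeR adjusted p = 0.619). Plin4 was at 2.39, 4.28 and 2.47 CPM in WT and at 8.19, 6.83 and 2.67 CPM in heterozygous liver (log2 fold change 0.96 ± 0.41, adjusted p = 1). Every heterozygous library lay below every WT library for Fabp4, and the groups overlapped for Plin4. Cidec was at 1.59, 3.36 and 2.03 CPM in WT and at 1.53, 1.86 and 2.13 CPM in heterozygous liver. Endothelial genes (7) summed to 122.4, 137.2 and 139.9 CPM in WT liver and 104.8, 82.7 and 111.7 CPM in heterozygous liver, and their part in the Fabp4 values was not tested.

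The remaining liver members were close to the floor. In WT and then heterozygous libraries, each for replicates 1 to 3, Adipoq had 9, 5, 4, 4, 13 and 10 counts and Cfd had 10, 5, 2, 3, 23 and 23 counts. Retn had 2, 1, 1, 0, 2 and 5 counts and Adig had 0, 0, 1, 4, 4 and 3 counts. Plin1 had 0 to 3 counts, Lep 0 to 1 and Ucp1 0 to 1. With 3 of 10 members tested, edgeR called 0 (beside 0.0193% of genes). At an unadjusted p under 0.05 were 2 members, Plin4 higher and Fabp4 lower (beside 4.56% of genes), and 1 of 3 had groups that did not overlap (beside 8.99% of genes).

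In spleen, Fabp4 was at 6.30, 6.09 and 2.43 CPM in WT and at 3.44, 6.45 and 2.69 CPM in heterozygous libraries (log2 fold change -0.24 ± 0.47, edgeR adjusted p = 1). Retn was at 0.918, 0.216 and 0.101 CPM in WT and at 0.410, 0.606 and 0.219 CPM in heterozygous spleen. Both genes overlapped between genotypes. Cfd was at 0.117, 0.0721 and 0.0704 CPM in WT and at 0.140, 0.317 and 0.251 CPM in heterozygous spleen (log2 fold change 1.44 ± 0.48, adjusted p = 1), with all heterozygous libraries higher.

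The rest of the spleen members were low as well. In WT and then heterozygous libraries, Adipoq had 12, 7, 9, 12, 10 and 9 counts and Plin4 had 17, 24, 16, 17, 10 and 40 counts. Cidec had 6, 7, 5, 3, 6 and 4 counts, Adig had 3, 5, 4, 1, 4 and 2 counts and Ucp1 had 1, 1, 9, 1, 2 and 0 counts. Plin1 had 0 to 2 counts and Lep 0 to 1. Of 5 members tested in spleen, edgeR called 0 (beside 0.242% of genes), 1 had an unadjusted p under 0.05 (Cfd, beside 3.52% of genes), and 1 of 5 had groups that did not overlap (beside 6.64% of genes). Pancreatic acinar genes (6) reached 1874 CPM in heterozygous replicate 2 and 22.2 to 241.4 CPM in the other spleen libraries, and kidney tubule genes (5) summed to 0.0841 to 0.379 CPM in WT and 10.6 to 22.1 CPM in heterozygous spleen; their part in the spleen values was not tested.

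In brain, Plin4 was at 4.67, 7.63 and 1.45 CPM in WT and at 3.77, 2.33 and 1.78 CPM in heterozygous libraries (log2 fold change -0.83 ± 0.51, edgeR adjusted p = 1). Retn was at 0.413, 0.495 and 0.303 CPM in WT and at 0.482, 0.405 and 0.272 CPM in heterozygous brain. The genotypes overlapped for both genes. In WT and then heterozygous libraries, Fabp4 had 12, 6, 11, 12, 13 and 10 counts, Plin1 had 4, 5, 4, 4, 13 and 8 counts and Ucp1 had 1, 6, 1, 2, 8 and 1 counts. Cfd had 1, 1, 8, 0, 1 and 1 counts, Lep had 2, 4, 2, 1, 6 and 2 counts and Adipoq had 1, 2, 3, 1, 0 and 4 counts. Cidec and Adig had at most 3 counts in any brain library. Of the 3 members tested in brain, edgeR called 0 (beside 0.0157% of genes), 0 had an unadjusted p under 0.05 (beside 2.96% of genes), and 0 of 3 had groups that did not overlap (beside 7.83% of genes).

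On the per-length scale, WT kidney had 126.8 ± 130.0 FPKM (SD, n = 3) of Cfd, 42.5 ± 24.2 of Fabp4, 21.5 ± 19.6 of Adipoq, 13.8 ± 12.2 of Cidec, 8.99 ± 7.09 of Retn and 4.52 ± 4.03 of Adig. It had 2.96 ± 2.65 FPKM of Ucp1, 2.61 ± 2.29 of Plin1, 1.54 ± 1.05 of Plin4 and 0.379 ± 0.365 of Lep. Without WT replicate 3 these means were higher, at 186.4 FPKM for Cfd, 55.9 for Fabp4, 31.6 for Adipoq, 20.3 for Cidec, 13.04 for Retn, 6.67 for Adig, 4.44 for Ucp1, 3.85 for Plin1, 2.14 for Plin4 and 0.564 for Lep, in the same order. In WT muscle the highest FPKM belonged to Fabp4 (48.7 ± 12.6), Cfd (35.8 ± 17.9) and Plin4 (29.0 ± 8.42), with Adipoq at 4.18 ± 2.16. By FPKM, Plin4 was the ninth of the members in WT kidney and the third in WT muscle.

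The order of tissues was tested in the 15 WT libraries, where 9 of the 10 members passed the filter and Ucp1 did not. On means of CPM scaled within each tissue, a scale that the fit across tissues does not share, the order ran from kidney to muscle and then to the other 3 tissues for Adipoq, Plin1, Cidec, Lep, Cfd, Retn and Adig, while muscle led for Plin4 and Fabp4. Ucp1 was at 4.85 CPM in kidney and at 0.0395 CPM or less in the other tissues. In the fit, Adig was higher in muscle than in kidney by 0.50 on the log2 scale, and the pair was not called. Without kidney WT replicate 3, kidney led for Fabp4 on these means (251.0 CPM, and 218.6 CPM in muscle), and the orders of the other 9 genes were as before. Of 40 pairs of neighbours in these orders, 36 were tested and 13 of those were called, beside 54.1% to 79.8% of all genes over the 10 pairs of tissues. Kidney and muscle differed from brain, liver and spleen for most members. Brain was lower than kidney for 8 of 9 members (beside 71.4% of all genes called in either direction) and lower than muscle for 9 of 9 (beside 72.3%). Liver was lower than kidney for 8 of 9 (beside 54.1%) and lower than muscle for 8 of 9 (beside 64.2%). Spleen was lower than kidney for 9 of 9 (beside 75.5%) and lower than muscle for 9 of 9 (beside 75.2%).

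Between the 3 tissues with little of these transcripts, fewer members were called. Brain and liver differed for 2 of 9 (beside 73.2%), brain and spleen for 2 of 9 (beside 79.8%) and liver and spleen for 3 of 9 (beside 72.9%). Fabp4 was among those called in each of these comparisons.

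Kidney and muscle differed for 2 of 9 members (beside 64.4%), with Plin4 higher in muscle (log2 difference 5.40 ± 0.68, edgeR adjusted p = 5.91e-06) and Fabp4 higher in muscle (1.36 ± 0.42, adjusted p = 0.0105). With total counts as the scale, Fabp4 muscle over kidney was 0.19 (adjusted p = 0.693) and was not called. On that scale Adipoq (-2.37), Plin1 (-2.29), Cidec (-2.64), Cfd (-1.84) and Retn (-1.97) were called lower in muscle, with edgeR adjusted p of 0.0131, 0.0158, 0.00929, 0.0460 and 0.0263, beside 73.3% of all genes called. That scale placed the median of all genes at 1.38 for kidney over muscle, beside 0.22 under TMM, and Adig reversed from 0.50 to -0.67 for muscle over kidney (neither called). Without kidney WT replicate 3, Adipoq (-1.76), Plin1 (-1.68), Cidec (-2.02), Cfd (-1.22) and Retn (-1.35) were called lower in muscle than in kidney, with edgeR adjusted p of 0.00227, 0.00214, 0.00205, 0.0320 and 0.0408 (beside 58.7% of all genes), and Adig was at -0.066 (not called). Ucp1 then passed the filter through the remaining WT kidney libraries, in which it was high, and had a log2 value of -8.75. Its direction was set by that entry, so no p-value is read from it. In the heterozygous libraries, on the TMM scale across tissues, all 10 values for muscle over kidney were positive, and 8 were called (beside 64.5% of all genes), among them Adipoq (1.03, edgeR adjusted p = 0.0351) and Plin1 (1.27, adjusted p = 0.00334), with Retn and Ucp1 not called. On CPM scaled within each tissue, heterozygous means in kidney and muscle were 24.35 and 24.01 for Adipoq and 15.43 and 14.38 for Retn. The other members were higher in muscle on that scale, Cidec only at 17.15 beside 17.14 CPM. Total counts were not run as the scale for the heterozygous libraries.

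The difference between tissues in the genotype effect was tested in all 30 libraries by an interaction term. No member was called (0 of 10, beside 0.758% of genes), and the smallest adjusted p values were 0.117 for Ucp1, 0.825 for Cidec and 0.850 for Plin1. Keeping every gene with any count, Ucp1 was called (beside 0.608% of genes). Without kidney WT replicate 3, Ucp1 and Plin1 were called (beside 0.628% of genes).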

How the data were processed

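RNA-seq counts were analysed for 30 libraries, 3 for each of 10 groups of tissue and genotype. The deposited values are counts of fragments per gene, which the authors obtained by running featureCounts 1.5.0-p3 (paired fragments over exons, Ensembl GRCm38 release 86) on IRFinder alignments, per the file headers. The header names no strand setting, so a gene and an overlapping antisense gene cannot be told apart. The submitters' processing notes name FastQC, STAR and DESeq2, and GRCm38 and mm10. Gene lengths, a count of exon bases per the file headers, set FPKM.

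Genotypes were compared within each tissue with edgeR 4.0.16 (quasi-likelihood test, its expression filter, TMM scaling, Benjamini-Hochberg adjustment over all genes tested, threshold 0.05). Tissues were compared in the 15 WT libraries, and the interaction in all 30. Levels are CPM scaled by TMM within a tissue. DESeq2 1.42.0, total counts, other filters and leaving out each library were alternatives. Correlations and ratios used log2 CPM (prior count 2) and FPKM. The share of Ucp1, the ratios to Adipoq and the correlations were chosen after the values were seen and, apart from the share, were computed under 1 setting. The code was tested on simulated data. No library pair agreed within sampling noise (smallest chi-square per degree of freedom 15.4 over 30 pairs). Replicate numbers correlated across genotypes at r = 0.207 to 0.537 in brain and 0.190 to 0.212 in kidney. In liver r was 0.0512 to 0.277, in muscle 0.0829 to 0.271 and in spleen -0.472 to 0.475. No header or label says that a number marks an animal, and the block changed no call in brain or kidney.

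The members and gene lists were chosen with earlier results of these data known. All 10 members are named. A member with over 3 counts in any library of a tissue is described there in every library, list genes called are named, and the 5 genes most like Adipoq are given.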

Additional observations from a re-analysis of the deposited data

How the results depend on the processing

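Counts of members called between genotypes stayed at 0 in brain, kidney, liver and spleen under every alternative run. In muscle, 0 of 10 became 5 with DESeq2 (159 of all genes), 5 with the any-count filter (66 genes), 1 in the fit of all 30 libraries (229 genes) and 6 with the replicate number as a block (118 genes, beside 4 in the unblocked fit), and it was 0 to 1 with each library left out. In muscle the numbers correlated between genotypes at r = 0.0829, 0.183 and 0.271, beside 0.190 to 0.212 in kidney. No label says that they pair the libraries. The interaction called 0 members, 1 with the any-count filter, 0 to 2 with each library left out and 0 with the block. Of 36 tested pairs of tissue neighbours in WT, 13 were called, 29 of 40 in the heterozygous libraries, 15 with the block and 13 to 23 with each library left out, 23 without kidney WT replicate 3. The cause of these changes was not tested. In kidney the block turned the log2 fold changes of Adipoq (0.20), Plin1 (0.15), Fabp4 (0.0447) and Adig (0.10) positive. With each kidney library left out they ranged from -0.84 to 0.55 (Adipoq), -0.86 to 0.42 (Plin1), -1.14 to 0.18 (Cidec), -0.49 to 0.29 (Fabp4), -0.42 to 1.29 (Cfd), -0.47 to 0.60 (Retn) and -0.81 to 0.61 (Adig). In muscle all 10 genes kept their direction under every alternative run, Adipoq at 1.64 to 2.35 with each library left out. Single-gene log2 fold changes were followed across alternatives where the report prints them. Among the low members left out of that, Retn in brain, Cidec in liver and Adipoq, Plin4 and Retn in spleen changed sign under at least 1 alternative. The share of Ucp1 (heterozygous minus WT) ranged from -6.59 to 1.61 percentage points in kidney and from 5.56 to 16.2 in muscle with each library left out, alternatives chosen after seeing the data. Members low in brain, liver and spleen were left out by edgeR's expression filter; the any-count filter tested all 10 in each and called 0.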

Other observations

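In spleen, where fat-cell genes other than Fabp4 were below 1 CPM, 3 of 5 kidney tubule genes were called higher in heterozygous libraries by edgeR's quasi-likelihood test: Kap (mean 0 CPM in WT and 11.8 CPM in heterozygous libraries, adjusted p = 0.0237), Umod (0 and 2.60 CPM, adjusted p = 0.0318) and Slc12a1 (0.00671 and 1.23 CPM, adjusted p = 0.0350). All 5 hepatocyte genes were called lower in heterozygous spleen, among them Alb, the serum albumin gene (26.1 CPM in WT and 0.0644 CPM in heterozygous libraries, adjusted p = 0.0111), Ahsg (3.79 and 0 CPM, adjusted p = 0.0174) and Ttr (1.74 and 0.0320 CPM, adjusted p = 0.0174). Apoa1 (1.96 and 0.0138 CPM, adjusted p = 0.0388) and Cyp2e1 (2.31 and 0.115 CPM, adjusted p = 0.0317) completed that list. Among all genes tested in spleen, 0.242% were called. Adipoq stayed between 7 and 12 counts in all 6 spleen libraries.

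In liver, Hsd3b1, a steroid dehydrogenase listed as an adrenal marker, was called higher in heterozygous libraries (mean 1.24 CPM in WT and 10.3 CPM in heterozygous liver, edgeR adjusted p = 0.00962). Hepatocyte genes (5) reached a sum of 483.8 CPM in kidney heterozygous replicate 3 and 154.0 to 191.5 CPM in the other kidney libraries. In muscle they summed to 2.24 to 20.5 CPM in WT and 9.82 to 22.8 CPM in heterozygous libraries. The sums do not stand for every gene of the list, as heterozygous replicate 1, at 22.8 CPM, had 1 of the 5 genes above 3 counts. Of the 4 hepatocyte genes tested in muscle, 1 had a positive log2 fold change, and their median was -2.90. Mesothelial genes (4) summed to 17.6 to 33.0 CPM in WT and 19.9 to 23.8 CPM in heterozygous kidney. Brain cell genes (5) summed to 9.78 to 20.6 CPM in WT and 7.22 to 19.1 CPM in heterozygous muscle, and spleen lymphocyte genes (5) to 1.58 to 2.53 CPM and 1.85 to 3.26 CPM. Averaged over the muscle libraries, Mbp was at 13.3 CPM and each other brain cell gene at 0.641 CPM or less.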
